A study of Mus musculus with 12 samples.

Results

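A set of 9 genes for checkpoint and costimulatory ligands were followed through 12 RNA-seq libraries of CT26, a mouse colorectal cancer line: Cd274 (PD-L1), Pdcd1lg2 (PD-L2), Cd80, Cd86, Cd276 (B7-H3), Pvr (CD155), Nectin2 (CD112), Lgals9 (galectin-9) and Icosl (ICOS ligand). These 9 genes were chosen by name, as ligands read by T and NK cells, from 55335 genes counted in both deposited tables. The cultured cells carried the genotype WT and received DMSO or midostaurin at 1 µM for 48 h. The tumors were CT26 subcutaneous tumors whose mice received vehicle or 40 mg/kg midostaurin from day 7 after inoculation, for 2 weeks. Each of the 4 groups had 3 libraries. The labels give no mouse strain, sex or age. They leave unsaid if each library had its own culture or mouse, and p-values here measure only the spread between libraries, which may be technical.

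PD-L1 and PD-L2 bind PD-1 on T cells and dampen their activation, and in many cells Cd274 transcription follows interferon-gamma through the kinases JAK1 and JAK2 and the transcription factor IRF1. CD80 and CD86 bind the activating receptor CD28 and the inhibitory receptor CTLA-4, and ICOS ligand binds ICOS. CD155 and CD112 are adhesion proteins read by TIGIT, CD96, PVRIG and the activating receptor CD226, while galectin-9 is one of the proteins that bind TIM-3. Midostaurin is a multikinase inhibitor whose known targets include protein kinase C, FLT3 and KIT.

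The cell libraries held 34787389 to 38144039 counts and the tumor libraries 33399701 to 48109497. Levels are given as CPM, a gene's count relative to the total of its library after TMM scaling (a per-library correction computed here with 1 set of factors over the 12 libraries). A gene was called when edgeR's quasi-likelihood test gave a Benjamini-Hochberg adjusted p below 0.05 over all genes tested. Both cell libraries numbered 1, control and midostaurin, stood apart from numbers 2 and 3. Both lay above, or both below, all of the other 4 cell libraries in 65.1% of genes tested in cells, and in all 6 ligands detected there. In the cells, 10 of 12 T and NK cell markers and 3 of 10 colon epithelial markers (Epcam, Krt19 and Cdx1) had no counts in any library. Krt20, an intestinal keratin of the same list, was at 10.6 to 52.8 CPM in control cells. Among tumors, the skin and muscle list summed to 750.0 CPM in vehicle tumor 2, against 1.60 to 49.9 CPM in the other 5. Keratinocyte genes led that sum, with Krt14 at 504.2 CPM and Krt5 at 153.4 CPM. The muscle gene Acta1 was at 0.677 CPM in vehicle tumor 2, and was highest in midostaurin tumor 3 (25.7 CPM) and vehicle tumor 1 (13.0 CPM). Neutrophil markers summed to 840.7 CPM in midostaurin tumor 3, against 23.0 to 72.6 CPM in the others.

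In cultured cells the 9 ligands split into a detected group of 6 and an undetected group of 3. Levels were compared between genes only per kilobase of annotated exon. In control cells Lgals9 stood first at 22.6 ± 16.3 CPM per kb (SD, n = 3), followed by Pvr at 21.3 ± 5.61 and Nectin2 at 17.8 ± 3.71 CPM per kb. The library values of neighbours among these 3 overlapped. The first place of Lgals9 rested on control cell library 1, at 88.4 CPM against 29.3 and 26.8 CPM in libraries 2 and 3. Its lowest library value, 12.5 CPM per kb, lay below the lowest of Pvr (17.0) and of Nectin2 (15.2). Cd276 (8.75 ± 1.57 CPM per kb) and Cd80 (8.24 ± 1.17) came next and overlapped each other. Cd274 lay lower, at 1.30 ± 0.838 CPM per kb, with no overlap with Cd80. Pdcd1lg2, Cd86 and Icosl had 0 counts in all 6 cell libraries, where 3 counts, the limit that a count of 0 allows in a library, correspond to 0.0759 to 0.0854 CPM in a control library. This limit covers counting error only.

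Vehicle tumors had another order. Lgals9 led with 36.6 ± 5.38 CPM per kb and Pvr followed with 19.4 ± 3.85, without overlap between them or with the genes below. Nectin2 (7.54 ± 1.69 CPM per kb), Cd274 (6.02 ± 0.966), Cd80 (5.15 ± 0.598), Cd276 (3.72 ± 1.42) and Cd86 (2.14 ± 0.431) formed a descending run in which each gene overlapped the next. Icosl (1.43 ± 0.132 CPM per kb) and Pdcd1lg2 (0.250 ± 0.0314) lay below that run, and neither overlapped the gene above it. In midostaurin tumors Cd274 held the third place, at 17.0 ± 3.42 CPM per kb, with no overlap with Pvr above (27.1 ± 6.37) or Nectin2 below (6.45 ± 1.28). Pdcd1lg2 stood eighth there at 1.65 ± 0.902 CPM per kb and Icosl ninth at 0.894 ± 0.460, and these 2 overlapped.

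**Figure D1:**
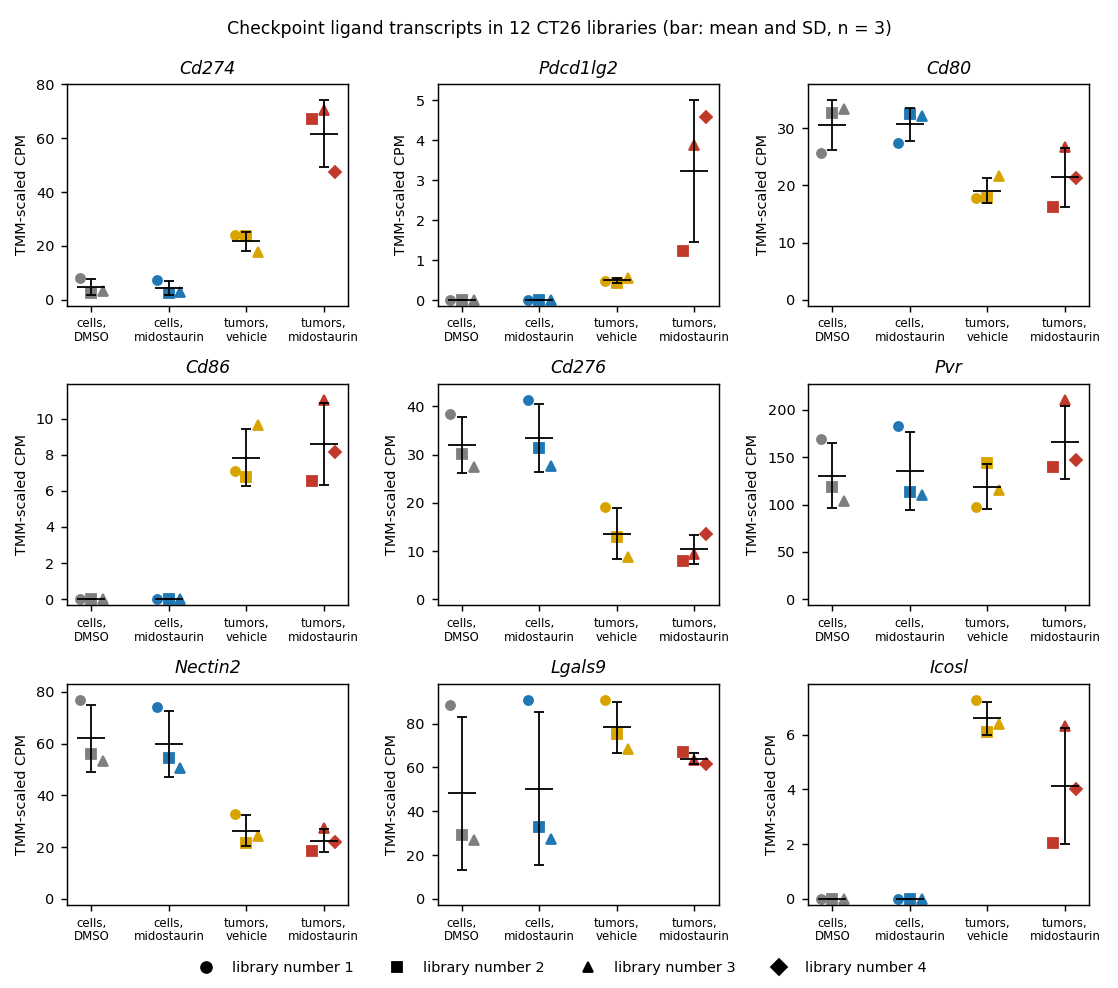
TMM-scaled CPM of each of the 9 ligands (linear axis, 1 panel per gene) in the 12 libraries, with points for libraries shaped by library number and bars for the mean and SD of 3. Cd274 in midostaurin tumors lies at 47.5 to 70.4 CPM against 17.8 to 23.9 CPM in vehicle tumors, and Pdcd1lg2, Cd86 and Icosl are at 0 in every cell library.

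Cd274 (chr19:29367455-29388095, plus strand, positions from the GENCODE M21 annotation of mm10, as for all genes here) encodes PD-L1, the main inhibitory ligand of PD-1. In vehicle tumors it measured 23.9, 23.7 and 17.8 CPM in libraries 1, 2 and 3. In midostaurin tumors it measured 67.2, 70.4 and 47.5 CPM in libraries 2, 3 and 4. All midostaurin tumors lay above all vehicle tumors, and midostaurin tumor 4 was the lowest of the treated ones. The log2 fold change was 1.51 ± 0.18 (SE; 95% interval 1.07 to 1.95), a 2.85-fold difference, with an adjusted p of 0.0672 in edgeR, so the gene was not called. With DESeq2, the other count test run, the log2 fold change was 1.51 and the adjusted p 3.14e-11. With any 1 tumor left out the log2 fold change ranged from 1.39 to 1.67 and the edgeR adjusted p from 0.0848 to 0.221.

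Pdcd1lg2 (chr19:29410919-29471161, plus strand) encodes PD-L2, the other PD-1 ligand, known mainly from dendritic cells and macrophages. It was rare in vehicle tumors, at 0.482, 0.433 and 0.555 CPM. Midostaurin tumors 2, 3 and 4 measured 1.22, 3.88 and 4.57 CPM. The groups did not overlap, and midostaurin tumor 2 lay below the other 2 treated tumors. The log2 fold change was 2.71 ± 0.52 (95% interval 1.49 to 3.93), with an adjusted p of 0.0850 in edgeR and 9.47e-05 in DESeq2. Its counts summed to 59 over the vehicle tumors and 388 over the midostaurin tumors, the smallest sums of the 9 ligands in either group.

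None of the 9 ligands was called by edgeR in tumors, where 0.0311% of the 16094 genes tested were called higher and 0.0124% lower. Of the ligands, 4 had an unadjusted p under 0.05, as had 3205 of all genes. With DESeq2, 5.36% of genes were called higher and 3.5% lower, and 2 of the ligands, Cd274 and Pdcd1lg2, were called higher. The same 2 ligands had non-overlapping groups with midostaurin higher, a feature of 13.1% of genes, and 1, Lgals9, with midostaurin lower, a feature of 14.1% of genes. Over the 9 ligands 5 log2 fold changes were above 0 and the median was 0.13, beside a median of -0.01 and 47.9% above 0 over all genes tested.

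The ligands of CD28, CTLA-4 and ICOS were not called between tumor groups. Cd80 (chr16:38455561-38496335) measured 17.9, 17.7 and 21.6 CPM in vehicle tumors and 16.3, 26.6 and 21.3 CPM in midostaurin tumors. The groups overlapped, with a log2 fold change of 0.17 ± 0.19 (95% interval -0.28 to 0.62, adjusted p = 0.657). Cd86 (chr16:36603869-36666081) measured 7.10, 6.77 and 9.65 CPM without the drug and 6.57, 11.0 and 8.16 CPM with it. Its log2 fold change was 0.13 ± 0.24 (95% interval -0.44 to 0.70, adjusted p = 0.797), and midostaurin tumor 3 was the highest library of both genes. Icosl (chr10:78069302-78083913) measured 7.28, 6.12 and 6.39 CPM in vehicle tumors and 2.06, 6.31 and 4.02 CPM in midostaurin tumors. Its groups overlapped only through midostaurin tumor 3, and the log2 fold change was -0.68 ± 0.37 (95% interval -1.56 to 0.21, adjusted p = 0.361). It came to -1.10 without midostaurin tumor 3 and to -0.36 without midostaurin tumor 2.

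Cd276 (chr9:58524298-58555437), whose product B7-H3 is a B7-family protein found on many solid tumors, measured 19.1, 13.0 and 8.77 CPM in vehicle tumors. Midostaurin tumors measured 7.94, 9.45 and 13.6 CPM, within the same range apart from vehicle tumor 1 above and midostaurin tumor 2 below. The log2 fold change of -0.39 ± 0.32 (adjusted p = 0.538) came to -0.06 without vehicle tumor 1. Among the poliovirus receptor family, Pvr (chr7:19903578-19921160) measured 97.2, 144.0 and 115.4 CPM in vehicle tumors and 139.5, 210.5 and 147.1 CPM in midostaurin tumors. Vehicle tumor 2 lay inside the treated range, and the log2 fold change was 0.48 ± 0.20 (95% interval 0.01 to 0.96, adjusted p = 0.242), or 0.29 without midostaurin tumor 3. Its relative Nectin2 (chr7:19716644-19750483, on the same chromosome and strand) measured 32.98, 21.7 and 24.4 CPM without the drug and 18.3, 27.3 and 22.0 CPM with it, with overlapping groups and a log2 fold change of -0.22 ± 0.20 (adjusted p = 0.581).

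Lgals9 (chr11:78962974-78984946) had the highest mean CPM per kb of the ligands in each group, in cells only through the libraries numbered 1. It measured 90.9, 75.4 and 68.5 CPM in vehicle tumors and 67.1, 63.4 and 61.8 CPM in midostaurin tumors. The groups did not overlap, though vehicle tumor 3 and midostaurin tumor 2 lay side by side. The log2 fold change was -0.28 ± 0.11 (95% interval -0.55 to -0.01, adjusted p = 0.233), and it came to -0.15 without vehicle tumor 1. Its values thus lay on the other side of 0 from those of the PD-1 ligands, without passing the test.

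**Figure D2:**
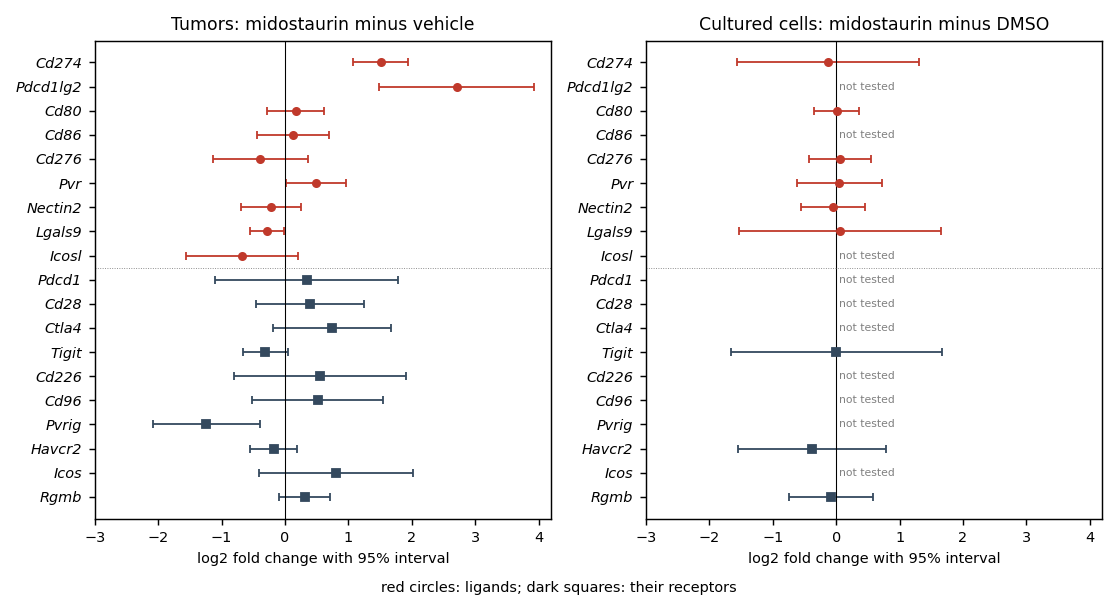
Log2 fold change (x axis, with its 95% interval from edgeR) of the 9 ligands (circles) and 10 receptors (squares) in tumors (left) and cultured cells (right). In tumors the intervals of Cd274 (1.07 to 1.95) and Pdcd1lg2 (1.49 to 3.93) lie farthest from 0 among the ligands, and genes without enough counts in cells are marked as not tested.

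In cultured cells no ligand was called between midostaurin and DMSO, and neither was any gene, at 0.0% of 14538 tested in edgeR, with 75 of them at an unadjusted p under 0.05 and 2 called by DESeq2. The 6 ligands detected were tested there, and none had an unadjusted p under 0.05 or non-overlapping groups, which 1.31% of genes had with midostaurin higher and 1.15% with midostaurin lower. Control cells 1, 2 and 3 measured 8.20, 2.64 and 3.30 CPM of Cd274, and midostaurin cells of the same numbers 7.25, 2.60 and 3.07 CPM. The midostaurin value was lower than the control of the same number in 3 of 3 pairs, with differences of -0.943, -0.0411 and -0.235 CPM. Nectin2 was also lower, and Cd276 and Lgals9 were higher, in 3 of 3 pairs, while Cd80 and Pvr had pairs of both signs. These signs are a description only, as the share of all genes with the same sign in every pair is not reported here. No label states the pairing. For Cd274 the log2 fold change was -0.13 ± 0.59 (95% interval -1.56 to 1.30, adjusted p = 1.00). In a fit with the library number as a block the log2 fold change was -0.11 ± 0.16 (adjusted p = 0.994), a much smaller error around nearly the same value.

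The other 5 detected ligands had log2 fold changes between -0.05 (Nectin2) and 0.06 (Cd276 and Lgals9) in cells. Their standard errors were 0.14 for Cd80, 0.20 for Cd276, 0.21 for Nectin2, 0.27 for Pvr and 0.65 for Lgals9. With the number as a block the standard errors were 0.04 to 0.06, and none of these was called. The wide errors of Lgals9 and Cd274 went with library number. Lgals9 measured 88.4 and 90.8 CPM in the cell libraries numbered 1 and 26.8 to 32.9 CPM in the other 4, a 3.08-fold difference between means. Cd274 measured 2.66-fold and Pvr 1.58-fold more in the libraries numbered 1, while Cd80 was lower there, at 25.6 and 27.3 CPM against 32.1 to 33.4 CPM. What the number stands for is not stated in the labels.

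An interaction contrast over the 12 libraries compared the response in tumors with that in cells. For Cd274 the difference was 1.63 ± 0.64 on the log2 scale (95% interval 0.21 to 3.05), with an unadjusted p of 0.0280 and an adjusted p of 0.759 in edgeR, so the responses were not shown to differ. With the number as a block in the cells the difference was 1.61 ± 0.24 and the adjusted p 0.0655. None of the 6 ligands that could be tested was called, beside 0.00589% of 16965 genes, and the other 5 had differences between -0.46 (Cd276) and 0.43 (Pvr) with adjusted p of 0.939 to 1.00. Pdcd1lg2, Cd86 and Icosl have no cell response to compare, since no cell library held a count.

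Vehicle tumors and control cells differed in 7 of the 9 ligands by edgeR, 4 higher and 3 lower in tumors, beside 24.5% of all genes called higher and 19.7% lower. Cd274 was higher in tumors by 2.21 ± 0.47 on the log2 scale (4.61-fold, adjusted p = 0.00346), with all vehicle tumors above all control cells. Against the limit of 3 counts per library, Cd86 was at least 91.8-fold higher (adjusted p = 2.77e-05), Icosl at least 77.2-fold (adjusted p = 0.000122) and Pdcd1lg2 at least 5.74-fold higher (adjusted p = 0.00201). These 3 ligands are known from antigen-presenting cells. Macrophage markers summed to 1011 to 1432 CPM in vehicle tumors and 6.40 to 26.7 CPM in control cells, and Adgre1, C1qa, C1qc and Cd163 had no counts in any cell library. In bulk samples fewer cells of a type and less RNA per cell cannot be told apart, and tumor and culture also differ in everything else that separates the 2 kinds of sample.

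In the other direction, 3 ligands were lower in vehicle tumors than in control cells. Nectin2 fell by 1.24 on the log2 scale (SE 0.22, adjusted p = 0.00140), Cd276 also fell by 1.23 (SE 0.29, adjusted p = 0.00654) and Cd80 fell by 0.68 (SE 0.18, adjusted p = 0.0114). All 3 had every vehicle tumor below every control cell library. This is a description only, as the share of all genes with such groups is not reported here. Pvr measured 169.5, 118.2 and 104.2 CPM in control cells, overlapping the vehicle tumors, with a log2 difference of -0.14 ± 0.26 (95% interval -0.71 to 0.44, adjusted p = 0.697). Lgals9 was not called (0.70 ± 0.50, adjusted p = 0.283), but without both cell libraries numbered 1, a comparison chosen after seeing the data, it was 1.49 higher in vehicle tumors on the log2 scale (adjusted p = 3.54e-05). Without control cell library 1 alone it was 1.48 higher (adjusted p = 0.0198).

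Cd274 and Pdcd1lg2 are neighbours on chromosome 19, 22823 bases apart and transcribed in the same direction. Jak2, which encodes a kinase behind the interferon-gamma receptor, has its start 116.0 kb upstream of the Cd274 start. In all, 8 other genes within 300 kb passed the count filter in tumors. Jak2 measured 56.9, 55.5 and 48.5 CPM in vehicle tumors and 67.1, 119.0 and 67.3 CPM in midostaurin tumors. The groups did not overlap, and the log2 fold change was 0.66 ± 0.23 (adjusted p = 0.183), with midostaurin tumor 3 far above the others. Plgrkt, a plasminogen receptor gene that runs the other way with 64 bases between it and Cd274, measured 34.3 to 35.7 CPM in vehicle tumors and 31.5 to 37.9 CPM in midostaurin tumors, with a log2 fold change of -0.03 ± 0.09 (95% interval -0.25 to 0.19). The remaining 6 lay between -0.47 (Ermp1, adjusted p = 0.109) and 0.70 (A930007I19Rik, adjusted p = 0.543), with Insl6 at 0.07, Ric1 at 0.17, Rcl1 at -0.20 and Gm5518 at -0.24. None of the 8 was called.

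**Figure D3:**
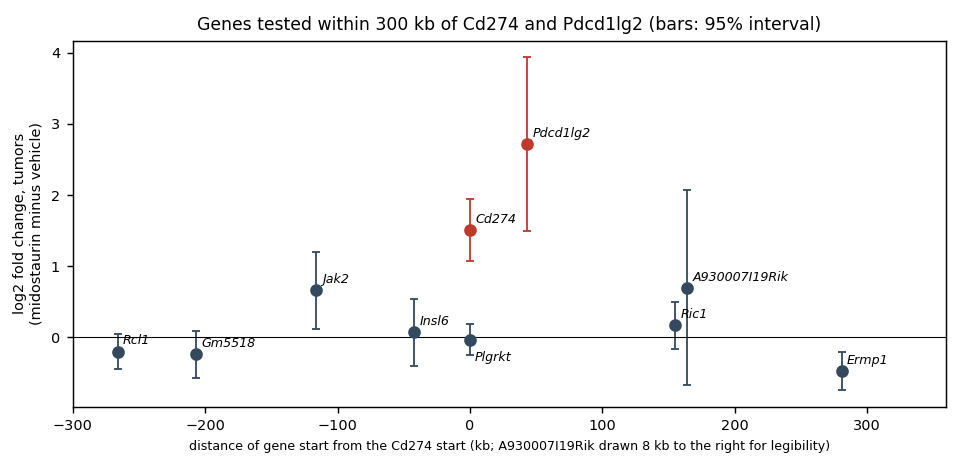
Log2 fold change in tumors (y axis, bars 95% interval from edgeR) of the 10 genes tested around Cd274 and Pdcd1lg2, by distance of each gene's start from the Cd274 start in kb (x axis). Cd274 (1.51) and Pdcd1lg2 (2.71) lie above their neighbours, Plgrkt (-0.03) shares its start region with Cd274, and A930007I19Rik is drawn 8 kb to the right of its place.

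The sequences before the starts of the PD-1 ligand genes are shown because these neighbours had the largest log2 fold changes of the 9 ligands between the tumor groups. RefSeq promoter windows (GRCm38.p6) were found for 7 of the 9 ligands, not for Cd86 and Pvr. The Cd274 stretch is chr19:29367309-29367437 (plus strand), the part of the 250 bases before the RefSeq start that lies outside annotated untranslated regions, and it overlaps a noncoding Plgrkt transcript. The Pdcd1lg2 stretch is chr19:29410669-29410918 (plus strand). Capitals mark matches to 2 motifs found by script on either strand: in Cd274 the core of the interferon-stimulated response element, GAAANNGAA, and in Pdcd1lg2 overlapping matches to the NF-kB consensus.

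Cd274: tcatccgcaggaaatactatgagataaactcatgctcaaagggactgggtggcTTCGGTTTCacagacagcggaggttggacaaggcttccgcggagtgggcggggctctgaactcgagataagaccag

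Pdcd1lg2: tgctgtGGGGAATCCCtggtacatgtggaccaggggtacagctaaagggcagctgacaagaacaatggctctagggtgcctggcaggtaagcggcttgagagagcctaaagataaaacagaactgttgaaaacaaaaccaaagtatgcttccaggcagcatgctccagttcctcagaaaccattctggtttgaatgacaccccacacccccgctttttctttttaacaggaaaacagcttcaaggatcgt

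The Cd274 match to the response element core, the reverse complement of the motif, spans bases 76 to 68 before the RefSeq start. A match of this core within 250 bases before the start occurred in 7.13% of all 32851 windows, and among the 7 ligands with a window Lgals9 was the other one that held it. The NF-kB consensus, found in 18.9% of windows, matched in Cd274 (bases 154 to 146, outside the printed stretch), Pdcd1lg2 and Icosl. TGANTCA, the AP-1 motif, matched in Cd80 (6.75% of windows), and GCGTG, the core of the xenobiotic response element, in Cd274 and Nectin2 (28.2%). The other 3 motifs searched had no match in any of the 7: TTCNNNGAA, the gamma-activated site (7.02% of windows), ACGTG, the hypoxia response core (16.6%), and TATAAA, the TATA box (12.4%). A match is a description of letters only.

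Interferon-gamma pathway genes are given from lists written by name. None of 14 regulators (receptor chains, JAKs, STATs, IRFs, SOCS proteins and the phosphatase Ptpn2) was called in tumors, and all 14 had log2 fold changes above 0, with a median of 0.33. Irf1, the transcription factor that acts on the Cd274 promoter, measured 98.9, 79.5 and 61.8 CPM in vehicle tumors and 211.6, 185.0 and 128.5 CPM in midostaurin tumors. Its groups did not overlap, and its log2 fold change was 1.14 ± 0.23 (adjusted p = 0.0907). For Stat3 the log2 fold change was 0.49 ± 0.19 (adjusted p = 0.222). Socs3, a feedback inhibitor of JAK signalling, had 1.44 ± 0.69 (adjusted p = 0.302), with 475.4 CPM in midostaurin tumor 3 against 66.4 to 101.6 CPM in the other 5. Ifng itself, chosen after its values were seen, measured 0.482 to 0.704 CPM in vehicle tumors and 0.662 to 0.901 CPM in midostaurin tumors (log2 fold change 0.31 ± 0.32, adjusted p = 0.631).

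Of 20 interferon-gamma induced genes, none was called in tumors and all 20 had log2 fold changes above 0, with a median of 0.77, while 8 had non-overlapping groups with midostaurin higher, a feature of 13.1% of all genes. In cells, 15 of the 20 were tested and 5 were above 0, with a median of -0.08. Ciita, the activator of MHC class II genes, had the smallest p (log2 fold change 1.86 ± 0.34, adjusted p = 0.0841). Gbp5, a guanylate-binding protein, had 1.29 ± 0.25 (adjusted p = 0.0850), Nlrc5, the activator of MHC class I genes, 0.58 ± 0.12 (adjusted p = 0.0907), and Gbp7 0.91 ± 0.25 (adjusted p = 0.127). The summed level of the list was 1159 to 1673 CPM in vehicle tumors and 1756 to 2959 CPM in midostaurin tumors. Midostaurin tumor 2 was the highest for the list, while midostaurin tumor 3 was the highest for Cd274.

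Genes for the handling of PD-L1 protein showed no called difference. Of 16 tested, 9 lay above 0 and 7 below, with a median log2 fold change of 0.05. Cmtm6, which keeps PD-L1 on the cell surface, chosen after its values were seen, had 0.03 ± 0.09 (adjusted p = 0.876). By the smallest p came Usp22, a deubiquitinase (0.40 ± 0.09, adjusted p = 0.102), Hip1r, which takes PD-L1 to the lysosome (0.45 ± 0.15, adjusted p = 0.174), and Fbxo22, a ubiquitin ligase subunit (-0.22 ± 0.08, adjusted p = 0.204).

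Other ligands of lymphocytes, 18 by list, had 13 members tested in tumors, with 5 above 0, 8 below and none called. Ceacam1, a ligand of TIM-3, measured 19.5, 25.3 and 56.9 CPM in vehicle tumors and 90.1, 156.9 and 133.7 CPM in midostaurin tumors. Its groups did not overlap, with a log2 fold change of 1.90 ± 0.42 (adjusted p = 0.0985). Ido1, an enzyme that depletes tryptophan and restrains T cells, measured 1.90, 2.27 and 2.06 CPM without the drug and 9.31, 4.10 and 6.93 CPM with it (1.72 ± 0.32, adjusted p = 0.0848). Cd47, which signals against phagocytosis, had 0.39 ± 0.12 (adjusted p = 0.154), and Nectin1, an adhesion protein bound by CD96, had -0.66 ± 0.16 (adjusted p = 0.115).

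The 10 receptors of the ligands were all tested in tumors and none was called, with 7 above 0 and 3 below. Pdcd1, which encodes PD-1, measured 4.69, 2.00 and 5.72 CPM in vehicle tumors and 1.71, 8.61 and 5.44 CPM in midostaurin tumors, overlapping in full (log2 fold change 0.34 ± 0.61, adjusted p = 0.795). Rgmb, a second partner of PD-L2, measured 43.5 to 49.6 CPM and 44.7 to 70.4 CPM (0.31 ± 0.17, adjusted p = 0.354). Ctla4 (0.75 ± 0.39, adjusted p = 0.338), Icos (0.80 ± 0.51, adjusted p = 0.427) and Cd28 (0.39 ± 0.36, adjusted p = 0.582) had overlapping groups. Of the receptors of Pvr and Nectin2, Pvrig (0.555 to 0.761 CPM against 0.204 to 0.311 CPM, -1.24 ± 0.35, adjusted p = 0.136) and Tigit (-0.31 ± 0.15, adjusted p = 0.304) had non-overlapping groups with midostaurin lower, a feature of 14.1% of all genes. Cd96 (0.52 ± 0.44, adjusted p = 0.551) and Cd226 (0.55 ± 0.57, adjusted p = 0.635) overlapped, as did Havcr2, which encodes TIM-3 (-0.18 ± 0.16, adjusted p = 0.565).

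Tigit was also counted in the cultured cells, where the T and NK markers summed to at most 0.0854 CPM. It measured 23.5, 8.40 and 8.49 CPM in control cells 1, 2 and 3, a level that overlapped that of vehicle tumors at 12.4 to 14.9 CPM (log2 difference -0.02 ± 0.52, 95% interval -1.18 to 1.14). Of the 10 receptors, 8 were called higher in vehicle tumors than in control cells, all but Tigit and Rgmb, beside 24.5% of all genes. Pdcd1 and Cd226 had no counts in any cell library.

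No member of the host cell marker lists was called between tumor groups. All 12 macrophage markers had log2 fold changes below 0 in tumors (median -0.83, none called), and their sum was 1011 to 1432 CPM in vehicle tumors against 383.9 to 893.1 CPM in midostaurin tumors. Of 10 dendritic cell markers tested, 7 lay above 0 and 3 below, with a median log2 fold change of 0.48. The list summed to 215.3 to 291.9 CPM in vehicle and 157.4 to 184.0 CPM in midostaurin tumors, and Fscn1, its most abundant member, measured 167.6 to 230.2 CPM and 121.9 to 139.2 CPM. Naaa, also lower without overlap, measured 28.1 to 41.5 CPM and 13.8 to 24.45 CPM (-0.83 ± 0.24, adjusted p = 0.142). Ccl22, a marker of mature dendritic cells, measured 0.324 to 1.32 CPM and 1.85 to 3.70 CPM (1.68 ± 0.53, adjusted p = 0.157). Fscn1 and Naaa were counted in the cultured cells too, at 148.2 to 335.2 CPM and 2.73 to 6.27 CPM in controls. T and NK markers summed to 81.0 to 103.8 CPM in vehicle tumors and 70.6 to 133.3 CPM in midostaurin tumors, so the groups overlapped. All 8 neutrophil markers tested lay above 0 (median log2 fold change 2.76), and none had non-overlapping groups. Their list summed to 23.0 to 72.6 CPM in vehicle and 61.1 to 840.7 CPM in midostaurin tumors, with the highest sum in midostaurin tumor 3. The part of these cells in the ligand values was not tested.

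**Figure D4:**
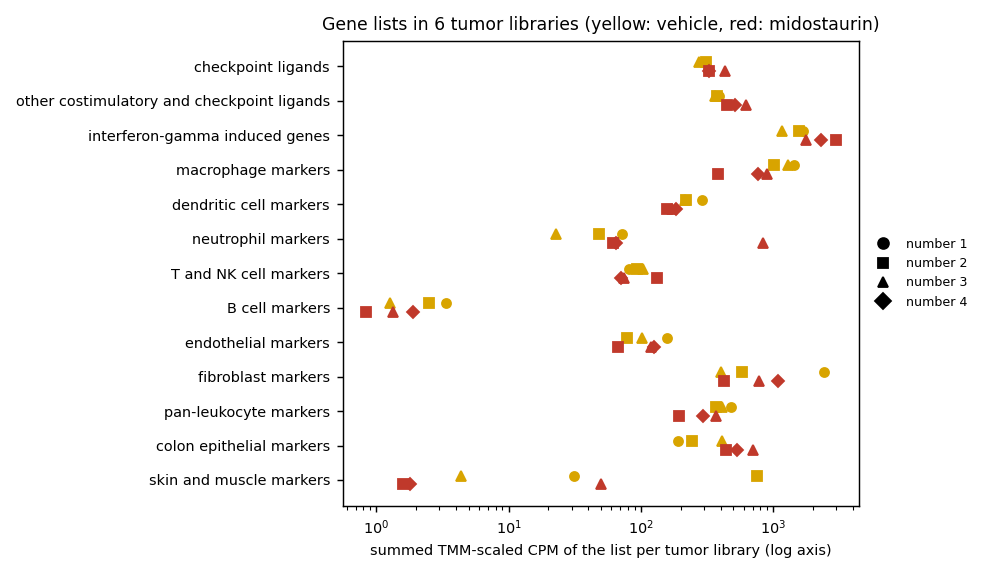
Summed TMM-scaled CPM per tumor library (log axis) of the ligands, related lists and marker lists, with yellow for vehicle, red for midostaurin and shapes for library numbers. Macrophage marker sums of the midostaurin tumors (383.9 to 893.1 CPM) lie below those of the vehicle tumors (1011 to 1432 CPM), the interferon-gamma induced list lies higher with the drug, and midostaurin tumor 3 stands apart in neutrophil markers.

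The leukocyte gene Ptprc and the macrophage gene Csf1r, chosen after their values were seen, are given for each tumor library. Ptprc measured 59.3, 45.0 and 46.5 CPM in vehicle tumors and 28.7, 59.8 and 41.9 CPM in midostaurin tumors, so the groups overlapped (log2 fold change -0.21 ± 0.25, adjusted p = 0.692). Csf1r measured 158.5, 115.1 and 155.0 CPM in vehicle tumors and 39.6, 106.6 and 97.1 CPM in midostaurin tumors, without overlap (-0.81 ± 0.35, adjusted p = 0.256). Midostaurin tumor 2 was the lowest tumor library for both genes. It was also the lowest of the 6 tumors for Icosl, Cd86, Cd80, Cd276 and Nectin2, of which Cd80, Cd276 and Nectin2 were detected in cultured cells too.

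Genes with the most similar profile to each PD-1 ligand were found by the root-mean-square difference of log2(CPM + 0.5), centred on each gene's own mean, over the 12 libraries. For Cd274 these were Rarres1 (0.34), Crocc2 (0.34), Csrp2 (0.35), Clic5 (0.38) and Ltbp2 (0.41). All 5 had non-overlapping tumor groups with midostaurin higher, a feature of 13.1% of all genes. Csrp2, which encodes a LIM-domain protein of muscle cells, was called (log2 fold change 1.65 ± 0.14, adjusted p = 0.0377). Rarres1, a gene induced by retinoids, measured 58.4 ± 12.6 CPM in vehicle tumors and 164.4 ± 37.8 CPM in midostaurin tumors (SD, n = 3 each; adjusted p = 0.0841). For Pdcd1lg2 the nearest were Egr2 (0.40), Rdh10 (0.43), AA467197 (0.45), Anks1b (0.46) and Gpr39 (0.47). Only genes with a mean of at least 5 CPM in tumors were compared. Pdcd1lg2 itself lay below that level (means of 0.490 CPM in vehicle and 3.23 CPM in midostaurin tumors), so genes as rare as it were left out. At such levels the added 0.5 CPM also flattens its profile. The tumor log2 fold changes of its 5 nearest genes were 1.13 to 1.45, against 2.71 for Pdcd1lg2. Egr2, an early-response transcription factor, measured 6.94 ± 1.63 CPM and 18.1 ± 8.37 CPM (1.39 ± 0.34, adjusted p = 0.115). Rdh10, which makes the retinal from which retinoic acid is formed, measured 31.1 ± 7.51 CPM and 69.9 ± 11.0 CPM (1.17 ± 0.20, adjusted p = 0.0841). Because these genes were picked for their likeness over the same libraries, their tumor values are a description.

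**Figure D5:**
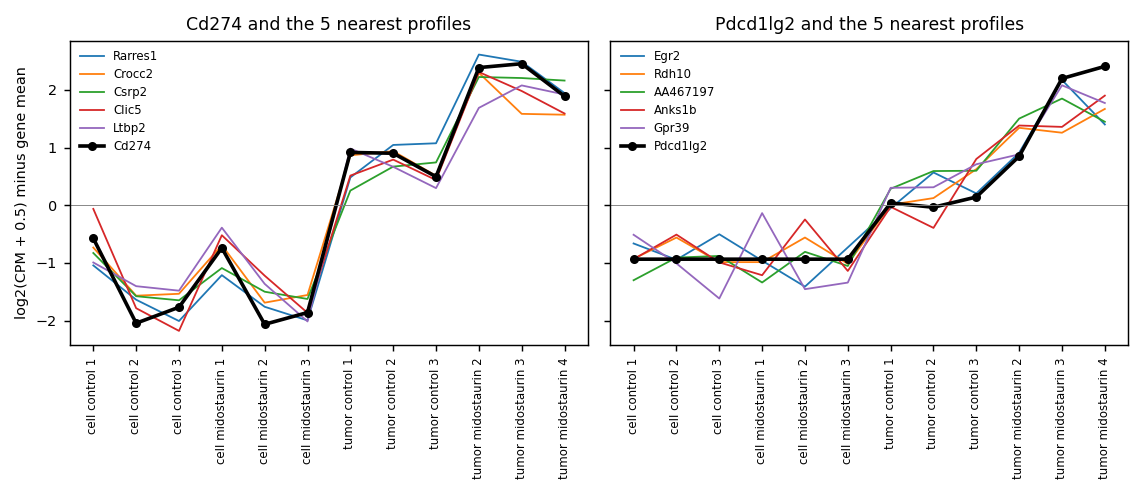
Centred log2(CPM + 0.5) per library (y axis) for Cd274 (left) and Pdcd1lg2 (right) in black, each with its 5 nearest genes, over the 12 libraries on the x axis. The nearest genes of Cd274, picked for likeness over these same libraries, share its higher value in cell libraries numbered 1 and in midostaurin tumors by that choice.

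Of the 9 ligands, 5 overlap an annotated gene on the opposite strand whose counts could share reads, since the strand setting of the counting is not given in the sources used here. AC119228.1, within Cd274, had 0 counts in every library. Gm10657 (Cd276), Gm20512 (Nectin2) and Gm16251 (Pvr) had at most 6, 5 and 4 counts in a library, and A930007I19Rik, which overlaps the Pdcd1lg2 body but none of its exons, had 13 to 79 counts.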

How the data were processed

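RNA was isolated with TRIzol, poly(A)-selected and made into directional libraries, per the labels' protocols. The authors deposited whole-number counts per gene, 1 table for cells and 1 for tumors. FastQC 0.11.2, Bowtie2 2.3.4, RSEM and mm10 are named in the submitters' processing notes; the RSEM version, annotation and strand setting are not given in the sources used here. RSEM divides reads among similar genes by estimate. Symbols matched 99.7% of identifiers. Treated tumor columns are numbered 2 to 4 and the labels 1 to 3; the column numbered 4 was used by its group and is called midostaurin tumor 4.

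Counts were tested with edgeR 4.0.16 in R 4.3.3 (filterByExpr, TMM, quasi-likelihood F-test), tumors and cells fitted apart and both together for the interaction and for tumor against cell controls. DESeq2 1.42.0, other scalings, no filter, 1 joint fit, a replicate block and leaving out each library were alternatives. The script was tested on simulated data. Same-numbered cell libraries deviated together (correlations 0.903, 0.721 and 0.704). Numbers 2 and 3 also correlated with each other between control and midostaurin cells (0.548 and 0.529). Deviations were taken from the mean of each group. With number 1 apart, numbers 2 and 3 lie together on the other side of that mean, which by itself raises their correlations. By the data the pairing is thus clear for number 1 and less so for numbers 2 and 3, and no label states it. Same-numbered tumor libraries did not deviate together (0.153 and -0.186). The 9 ligands, the gene lists and the tests were chosen with earlier results of these data known. Named genes were all ligands and receptors, neighbours within 300 kb, and genes overlapping a ligand on the opposite strand. The 5 nearest profiles among genes with at least 5 CPM in tumors were named too. From the lists came genes with the 4 smallest tumor p-values of a list. Others were chosen after their values were seen. They are marked so, except markers named for having no counts in cells and the keratins Krt5 and Krt14. Many genes of the lists are not reported by name here, among them some with the 4 smallest p-values of a list. Promoter windows came from RefSeq.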

Additional observations from a re-analysis of the deposited data

How the results depend on the processing

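Over 402 values of the ligands under alternative settings, 372 kept their direction and their side of the threshold, 4 became calls, none was lost and 26 changed sign, none of these called. The 4 were Cd274 and Pdcd1lg2 in tumors with DESeq2, and Lgals9 in vehicle tumors against control cells without cell number 1. With library totals in place of TMM, none of the 36 group means moved by more than 1 SD. The count of genes called in tumors was 7, and 1426 with DESeq2, 0 without the count filter, and 0 to 1 with 1 library left out; the cause was not tested. In cells it was 0, and 2 with DESeq2, 1 with library totals, 1 in the joint fit, 1 without both libraries numbered 1, and 0 with any 1 library left out. For the tumor minus cell response it was 1, and 99 with DESeq2, 0 without both cell libraries numbered 1, and 1 to 6 with 1 library left out, the 6 without midostaurin tumor 4. Tumor against cell controls gave 6007 to 8013 calls with 1 library left out, beside 7501.

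With the replicate block the calls were 0 in tumors, 8 in cells and 16 for the difference with the block in cells; no ligand was called. In tumors, where the numbers do not pair the samples, the blocked log2 fold change of Cd274 was 1.75 (adjusted p = 0.340).

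Sign changes of log2 fold changes, none of them called, came from leaving out libraries. In tumors Cd80 ranged from -0.0030 to 0.33 and Cd86 from -0.073 to 0.32, both below 0 without midostaurin tumor 3. In cells the ranges were -0.74 to 0.54 for Cd274, -0.11 to 0.081 for Cd80, -0.12 to 0.22 for Cd276, -0.23 to 0.28 for Pvr, -0.24 to 0.13 for Nectin2 and -0.68 to 0.85 for Lgals9. Without both cell libraries numbered 1, Cd80 in cells was -0.031. For the difference the ranges were -0.025 to 0.32 for Cd80, -0.36 to 0.020 for Nectin2 and -1.14 to 0.39 for Lgals9. Pvr in vehicle tumors against control cells ranged from -0.29 to 0.10, at 0.10 without both cell libraries numbered 1. The 3 libraries a group limit how small a difference can be called, and the 95% intervals of Cd80, Cd86, Cd276, Nectin2 and Icosl in tumors include 0.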
